A study of Mus musculus with 12 samples.

Results

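Promoters of intermediate CpG density were examined in the methylomes of 2 subtypes of mouse islet β cells. A promoter was the 500 bp on each side of the transcription start of a gene's Ensembl-canonical transcript (GENCODE annotation of mm39, autosomal protein-coding genes), and it counted as intermediate when 11 to 30 CpG positions were listed in it at both ages and each of the 4 pools of cells had at least 100 reads on them. This rule used the sequence and the coverage, not the methylation level. Of 20621 autosomal promoters, 3937 had 11 to 30 CpGs, 96 of these fell short of the reads, and 3841 were kept. They make up 20.7% of the 18556 promoters with enough reads, beside 2308 CpG-poor promoters (10 CpGs or fewer) and 12407 CpG-rich ones (over 30 CpGs).

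Islets of postnatal day 2 (P2) and day 60 (P60) mice were sorted by flow cytometry, and DNA methylation was measured by tagmentation-based whole-genome bisulfite sequencing. All mice were MNYI (Myt1cCre; Ngn3nCre; Rosa26eYFP, InsApple) and thus carried the same alleles: Cre recombinase is split into a fragment driven from Myt1 and another driven from Ngn3, so that eYFP permanently labels the descendants of progenitors that had used both genes, and Apple marks cells that express insulin. The groups were eYFP+ and eYFP- β cells, with 2 libraries of each at P2 and 4 of each at P60. Every library combined cells of several mice and sorting batches, and the sort kept live cells by eYFP and Apple. The labels call the reporter eGFP and one field gives the cells as all islet cells, whereas the sample titles name sorted β cells.

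Read counts were available for 1 pool per group, and hypomethylated regions for every library. The labels do not name the subtype of a pool, which was taken from the direction of change in the study and the overlap of its regions with those of the labelled libraries. Each CpG was covered on average by 24.4 and 24.6 reads in the P2 eYFP- and eYFP+ pools and by 44.1 and 43.9 in those of P60, and methylated reads made up 69.2%, 69.95%, 67.5% and 67.3% of all reads in the order P2 eYFP-, P2 eYFP+, P60 eYFP-, P60 eYFP+, which is the order of every set of 4 levels given here. The X chromosome of the P2 eYFP- library labelled female carried 91.6% of 263 hypomethylated regions found in the male and in no female P60 libraries, and that of the library labelled male 14.1%, so the sexes of these 2 libraries go against their labels. All values given here are autosomal. The files of all P2 libraries share 1 library code and those of the P60 libraries 2 others, so age and this code cannot be told apart.

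A CpG is a C followed by a G, the site at which mammalian cells add methyl groups to DNA. CpG islands, where the sites are dense, are kept free of methylation in most tissues whether or not the gene is used, while isolated CpGs are methylated by default. Promoters between these extremes are the ones whose methylation differs most from tissue to tissue, and many of them belong to genes of a single tissue. De novo methylation is added by DNMT3A and DNMT3B, and removal runs through oxidation by TET enzymes or through dilution at cell division.

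The upstream sequences of 8 of these promoters show the density in question. Each run is the 200 bases before the start, 5′ to 3′ on the gene's strand, read from the GRCm39 genome, with every CpG in capitals. The first 5 gained methylation between P2 and P60 over these bases, the next 2 belong to β-cell genes that lost it around, but hardly within, these bases, and the last differed between the subtypes at P60.
Id2 (chr12:25147283-25147482, minus strand): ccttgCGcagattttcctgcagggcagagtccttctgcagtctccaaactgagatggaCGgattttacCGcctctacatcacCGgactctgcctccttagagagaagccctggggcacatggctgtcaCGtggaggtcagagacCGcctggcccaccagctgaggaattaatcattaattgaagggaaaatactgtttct
Nr6a1 (chr2:38674528-38674727, minus strand): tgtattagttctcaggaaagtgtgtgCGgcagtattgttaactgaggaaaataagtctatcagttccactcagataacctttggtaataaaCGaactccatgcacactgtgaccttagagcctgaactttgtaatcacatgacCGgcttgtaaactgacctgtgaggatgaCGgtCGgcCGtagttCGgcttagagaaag
Hes7 (chr11:69011030-69011229, plus strand): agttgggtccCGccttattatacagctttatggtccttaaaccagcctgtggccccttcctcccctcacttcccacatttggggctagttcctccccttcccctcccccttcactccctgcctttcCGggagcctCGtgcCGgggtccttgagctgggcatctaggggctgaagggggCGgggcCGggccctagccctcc
Pyy (chr11:101998659-101998858, minus strand): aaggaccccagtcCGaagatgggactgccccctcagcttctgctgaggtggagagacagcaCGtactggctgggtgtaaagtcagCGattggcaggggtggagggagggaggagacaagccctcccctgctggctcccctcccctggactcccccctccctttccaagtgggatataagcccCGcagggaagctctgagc
Acta1 (chr8:124621687-124621886, minus strand): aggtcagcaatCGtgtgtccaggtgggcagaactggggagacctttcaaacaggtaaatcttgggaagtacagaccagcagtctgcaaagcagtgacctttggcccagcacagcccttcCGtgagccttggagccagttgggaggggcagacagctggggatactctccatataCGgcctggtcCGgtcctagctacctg
Ffar1 (chr7:30560990-30561189, minus strand): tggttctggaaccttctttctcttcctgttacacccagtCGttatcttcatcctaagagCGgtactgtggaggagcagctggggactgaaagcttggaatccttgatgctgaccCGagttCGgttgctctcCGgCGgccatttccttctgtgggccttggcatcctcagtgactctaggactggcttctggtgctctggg
Tmem215 (chr4:40471980-40472179, plus strand): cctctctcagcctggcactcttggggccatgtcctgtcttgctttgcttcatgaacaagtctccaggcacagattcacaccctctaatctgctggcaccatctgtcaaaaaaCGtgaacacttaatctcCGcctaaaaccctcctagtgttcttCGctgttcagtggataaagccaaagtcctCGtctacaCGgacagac
S100z (chr13:95615230-95615429, minus strand): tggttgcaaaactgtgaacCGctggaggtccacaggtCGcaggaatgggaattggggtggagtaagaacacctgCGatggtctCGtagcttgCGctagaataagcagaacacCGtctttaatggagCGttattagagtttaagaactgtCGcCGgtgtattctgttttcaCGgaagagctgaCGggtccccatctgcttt

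The level of a promoter, methylated reads divided by all reads over its CpGs, had no typical value in this group. The median was 54.4%, 53.9%, 59.3% and 58.9%, but the interquartile range at P60 ran from 21.4% to 76.0% in eYFP- cells and from 21.1% to 75.5% in eYFP+ cells. CpG-rich promoters had a median level between 1.34% and 1.52% and CpG-poor ones between 65.8% and 70.8%. In all 4 pools alike, 520 promoters (13.5%) were under 10% (unmethylated), 833 (21.7%) lay between 10% and 50% (partly methylated) and 1942 (50.6%) were over 50% (methylated), while 546 (14.2%) changed class between pools. A partial level can come from a mixture of methylated and unmethylated cells or from differing CpGs within each copy, which pooled counts do not tell apart. The median reads per promoter were 470, 462, 950 and 915, and a promoter's 95% Wilson interval reached a median of 3.76, 3.78, 2.63 and 2.69 percentage points to either side. These intervals cover read counting only.

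The class of a promoter followed the number of its CpGs closely. From 11 to 15 CpGs (1409 promoters), 2.34% were unmethylated and 68.0% methylated. From 16 to 20 (1030), the shares were 9.22% and 53.9%, and from 21 to 25 (758) they were 21.4% and 36.8%. From 26 to 30 (644), 35.7% were unmethylated and 23.3% methylated. There was no step at either edge of the range: the median at P2 in eYFP- cells was 70.9% with exactly 10 CpGs and 69.7% with 11, and 10.4% with 30 and 7.53% with 31.

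**Figure D1:**
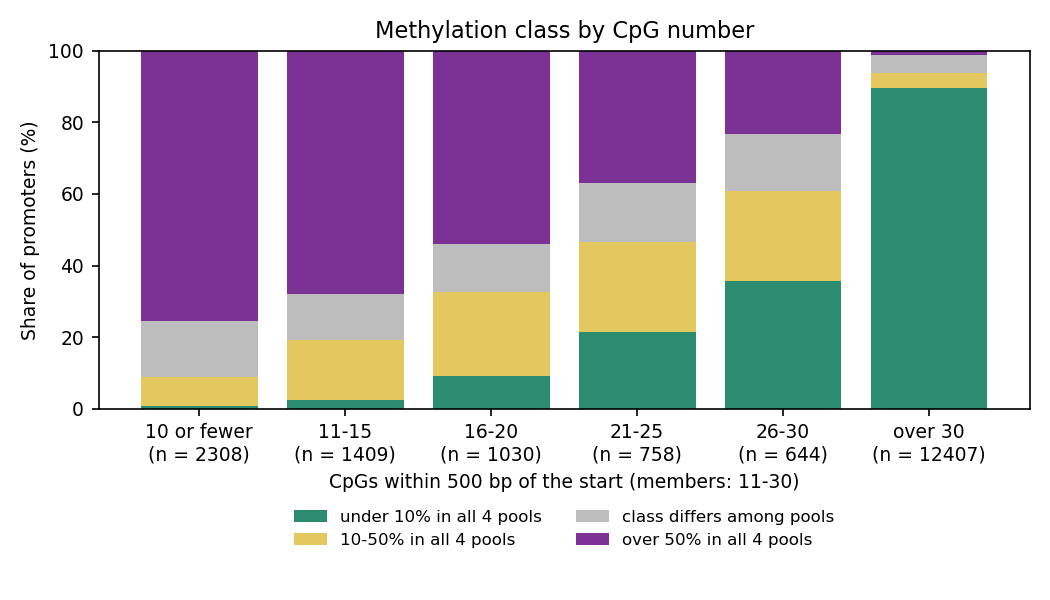
Share of promoters (%) in each methylation class, stacked, by the number of CpGs within 500 bp of the start, with the number of promoters under each bar. The unmethylated share goes from 2.34% with 11 to 15 CpGs to 35.7% with 26 to 30, between 0.693% in CpG-poor and 89.5% in CpG-rich promoters.

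Taken over all CpG numbers, unmethylated and methylated members were close in base composition and differed in CpG number. The median G and C content of the window was 50.1% and 50.3%, while the ratio of observed to expected CpGs was 0.39 and 0.265. At like CpG number the unmethylated members held less G and C. Their median was 46.6% against 49.3% with 11 to 15 CpGs and 49.2% against 50.5% with 16 to 20. With 21 to 25 CpGs it was 49.8% against 51.9%, and with 26 to 30 it was 51.1% against 52.7%. The TATA box letters TATAAA, searched on the gene's strand 40 to 20 bases before the start, stood in 0.577% of the unmethylated and 4.02% of the methylated members, against 1.504% of all promoters tested. Other runs of letters were searched on both strands of the 200 upstream bases. CCAAT was found in 38.5% of the unmethylated and 28.2% of the methylated members (31.3% of all promoters). CGGAAG and GGGCGG, which each hold a CpG themselves, were found in 9.04% and 5.46% (14.01%) and in 19.6% and 11.6% (39.0%). Within the promoters of 26 to 30 CpGs the shares with CCAAT were 39.6% and 26%, and within those of 16 to 20 CpGs 37.9% and 28.1%. TATAAA was rarer in unmethylated members in each range of CpG number. From 11 to 15 CpGs upward its shares were 0% and 4.80%, 0% and 2.88%, 0.617% and 4.30%, and 0.870% and 2.67%. Only 3 unmethylated members held it in all. The differences in GGGCGG and CGGAAG did not hold at every CpG number. With 11 to 15 CpGs GGGCGG stood in 9.09% of the unmethylated and 9.60% of the methylated members and CGGAAG in 0% and 4.91%. With 16 to 20 CpGs GGGCGG stood in 10.5% and 11.7%, and with 21 to 25 CpGs CGGAAG in 8.02% and 7.89%. Such matches are descriptions of the sequence and not evidence of binding.

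The methylation of the unmethylated members formed a valley around the start. In P2 eYFP- cells their level was 1.28% in the first 100 bases after the start, 6.77% between 300 and 200 bases before it and 46.9% between 1000 and 900 bases before it. The valley was skewed into the gene, with 8.71% at 500 to 600 bases downstream against 31.5% at the same distance upstream. A hypomethylated region, a stretch of low methylation called by the authors in each library, lay over the start of 96.4% of the unmethylated members on average over the 12 libraries, of 52.9% of the partly methylated and of 0.193% of the methylated ones. The same libraries feed the pools that set the classes, so these shares are not an independent test of them. Methylated members had another annotated start of the same gene, over 1 kb away and inside a hypomethylated region of all 4 pools, in 162 of 1942 cases (8.34%), and unmethylated members in 89 of 520 (17.1%).

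Gene families differed widely in their classes. Of 105 Zfp zinc finger genes in this range, 59 (56.2%) were unmethylated in all pools and 14 (13.3%) methylated. Of 40 keratin genes, the structural proteins of epithelia, 35 (87.5%) were methylated, as were 35 of 41 olfactory receptors (85.4%), 11 of 12 defensins (91.7%) and 11 of 13 claudins (84.6%). Among solute carriers, 45 of 100 (45.0%) were methylated and 9 unmethylated, near the 50.6% and 13.5% of all members.

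Gene lists of β cells and other tissues were compared by class, with no test and no matching on CpG number, and were drawn up with earlier results of these data known. Of 56 β-cell genes, 10 had a promoter in this range and none of these was methylated in all pools; the list's median level was 15.7%, 13.4%, 11.4% and 12.5%. Gipr, the receptor for the incretin GIP, was at 3.5%, 5.56%, 1.85% and 2.53%, and Pcsk1, the convertase that cuts proinsulin, at 7.61%, 7.59%, 3.48% and 3.88%. Slc30a8, the zinc transporter of insulin granules, was at 11.6%, 14.7%, 13.7% and 12.5%. Beside 50.6% of all members, 36 of 44 immune genes (81.8%), 43 of 58 muscle genes (74.1%), 20 of 26 epidermal genes (76.9%), 13 of 14 germline genes (92.9%) and 23 of 38 liver genes (60.5%) were methylated in all pools.

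Markers of the other cells that an islet sort can hold were mixed. Of 11 members marking other islet hormone cells, 4 were methylated and 3 unmethylated in all pools, and Gcg, the glucagon gene of α cells, was at 60.2%, 62.3%, 54.6% and 60.8%. Of 12 acinar (exocrine) genes, 8 were methylated and none was unmethylated, with list medians of 61.0%, 65.6%, 65.3% and 65.1%. A separate list of 16 exocytosis genes, which are not markers of such cells, had 7 unmethylated and 4 methylated.

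Myt1 itself, the factor whose history separates the 2 subtypes, has a promoter in this range with 13 CpGs. Its level was 0.619%, 0.655%, 1.38% and 1.305%, and the start lay in a hypomethylated region in all 12 libraries. Its paralogues St18 (6.28%, 5.69%, 1.54%, 1.48%) and Myt1l (4.80%, 8.94%, 0.609%, 0.865%) were likewise unmethylated in both subtypes at both ages. With levels of at most 8.94% in every pool, none of the 3 could differ between the subtypes by the threshold used. That none was called is therefore no result. The largest difference was 4.14 points, at Myt1l at P2 (adjusted p = 0.301, Fisher's exact test on reads).

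Between P2 and P60, gains of methylation outnumbered losses among the promoters whose change passed the test, while most members were not called. A promoter was called gained or lost when a Fisher's exact test of its summed reads passed an adjusted p of 0.05 (Benjamini-Hochberg over all 18556 promoters) and the level moved by at least 10 percentage points the same way in both subtypes. By this rule 344 members gained methylation and 37 lost it, which is 8.96% and 0.963% of the members against 2.85% and 0.577% of all promoters tested. The 344 are 65.2% of the 528 promoters of any density that gained. CpG-rich promoters showed 80 gains (0.645%) and no loss, and CpG-poor ones 104 gains (4.51%) and 70 losses (3.03%). In the P2 eYFP- and eYFP+ pools 92.4% and 92.3% of CpG-rich promoters were under 10%, where a loss of 10 points is impossible. They also make up 12407 of the 18556 promoters behind the shares of all promoters tested. The share that gained did not drop at the edges of the range. It was 8.57% with exactly 10 CpGs and 7.67% with 11, and 2.42% with 30 and 3.82% with 31. CpG-poor promoters had a median of 186 reads in each P2 pool, beside 470 and 462 in members, and the part of reads in their share was not tested. The test treats reads as independent draws from 1 pool per group, so its p measures read counting and not the spread between libraries or animals.

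As a group the members moved little. Their median difference was 0.424 points in eYFP- and 0.0304 points in eYFP+ cells, with 1562 members higher at P60 in both subtypes and 1377 lower in both. CpG-poor promoters had median differences of -2.92 and -4.54 points, while the median of CpG-rich ones moved by -0.0144 and -0.143 points. No member was called in opposite directions in the 2 subtypes. The stage differences of the 2 subtypes, which share no library but may share mice, had a Pearson correlation of 0.84 over the 3841 members. It is given as a description since both share the ages and their codes.

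**Figure D2:**
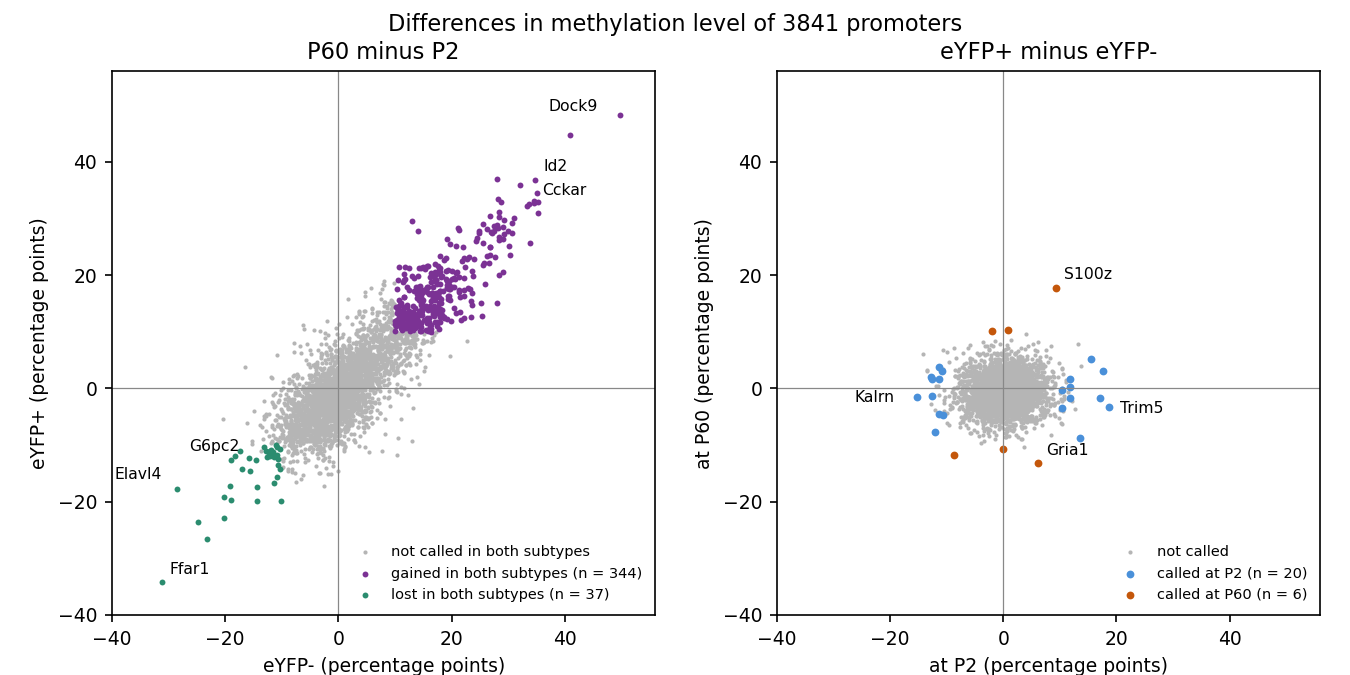
Differences in methylation level of the 3841 promoters, in percentage points, 1 point per promoter. Left, P60 minus P2 in eYFP- against eYFP+ cells, with 344 gained and 37 lost promoters in colour along the diagonal; right, eYFP+ minus eYFP- at P2 against P60 on the same scale, a round cloud with 20 promoters called at P2 and 6 at P60.

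Gain was most frequent where the level at P2 was intermediate. Of 637 members with a mean P2 level between 25% and 50%, 171 (26.8%) gained and 10 (1.57%) lost. Of 649 members under 10%, 13 (2.00%) gained, and of 1076 members over 75%, 5 (0.465%) gained and 8 (0.743%) lost. A member under 10% at P2 cannot lose 10 points in both subtypes, and a nearly fully methylated one cannot gain them. The P2 level is also part of the change itself, so the pattern partly follows from the rule. In terms of class, 146 members went from partly methylated in both P2 pools to methylated in both P60 pools, and 21 went the other way. No member went from unmethylated to methylated or back, while 48 went from unmethylated to partly methylated and 21 from partly methylated to unmethylated. By CpG number, gains made up 8.30% with 11 to 15 CpGs, 9.42% with 16 to 20, 10.8% with 21 to 25 and 7.45% with 26 to 30.

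The largest gain was at Dock9, an exchange factor that activates the GTPase Cdc42 (chr14:121935329-121936329, 22 CpGs). Its level was 22.3%, 20.3%, 72.0% and 68.6%, on 587 to 1077 reads a pool. Both P60 pools stood far above both P2 pools, by 49.7 points in eYFP- cells (adjusted p = 1.25e-84, Fisher's exact test on reads) and 48.3 points in eYFP+ cells (adjusted p = 6.72e-76). The start lay in a hypomethylated region in all 4 P2 libraries and in no P60 library. Dock9 has another start over 1 kb away that stayed in a hypomethylated region in all 4 pools.

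Regulators of transcription and signalling were among the other large gains. Id2, which blocks DNA binding by basic helix-loop-helix factors, went from 35.2% and 29.4% at P2 to 69.97% and 66.3% at P60 in the order eYFP-, eYFP+. Each of the 6 CpGs printed above for Id2 was higher at P60, from 26.7% to 63.3% at P2 and from 71.7% to 96.3% at P60. Hes7, a repressor of the segmentation clock, was at 35.3%, 33.3%, 69.0% and 65.8%. Nr6a1, an orphan nuclear receptor of germ cells and early embryos, was at 45.2%, 43.4%, 80.4% and 76.4%, and all 7 of its printed CpGs rose. Rnf43, a ubiquitin ligase that removes Wnt receptors from the cell surface, was at 36.8%, 35.2%, 70.1% and 67.4%. In these 4 genes the Wilson intervals of the P2 and P60 pools did not overlap, which is no separate support since the same reads chose them.

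The remaining genes among the 10 largest gains have various roles. Cckar, a receptor for the gut hormone cholecystokinin, was at 18.5%, 21.2%, 53.1% and 53.9%, with a hypomethylated region over the start in all P2 and no P60 libraries. Its 200 upstream bases hold no CpG, and the rise stood on both sides of them, from 14.2% and 13.9% to 44.5% and 49.4% from there to 500 bases upstream. Cacnb2, a β subunit of voltage-gated calcium channels, was at 25.96%, 23.7%, 60.5% and 56.9%. Pde6c, the phosphodiesterase of cone photoreceptors, was at 47.2%, 42.9%, 88.1% and 87.6%, and Eno3, the muscle enolase, at 29.3%, 27.8%, 61.4% and 63.7%. Gm973, a predicted gene, was at 21.2%, 21.4%, 56.2% and 56.02%. Of these genes, Cacnb2 and Eno3, like Id2, Nr6a1 and Rnf43 above, have at least 1 other start in a region hypomethylated in all pools. That was so for 65 of the 344 gained members (18.9%) and for 11.7% of all members.

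**Figure D3:**
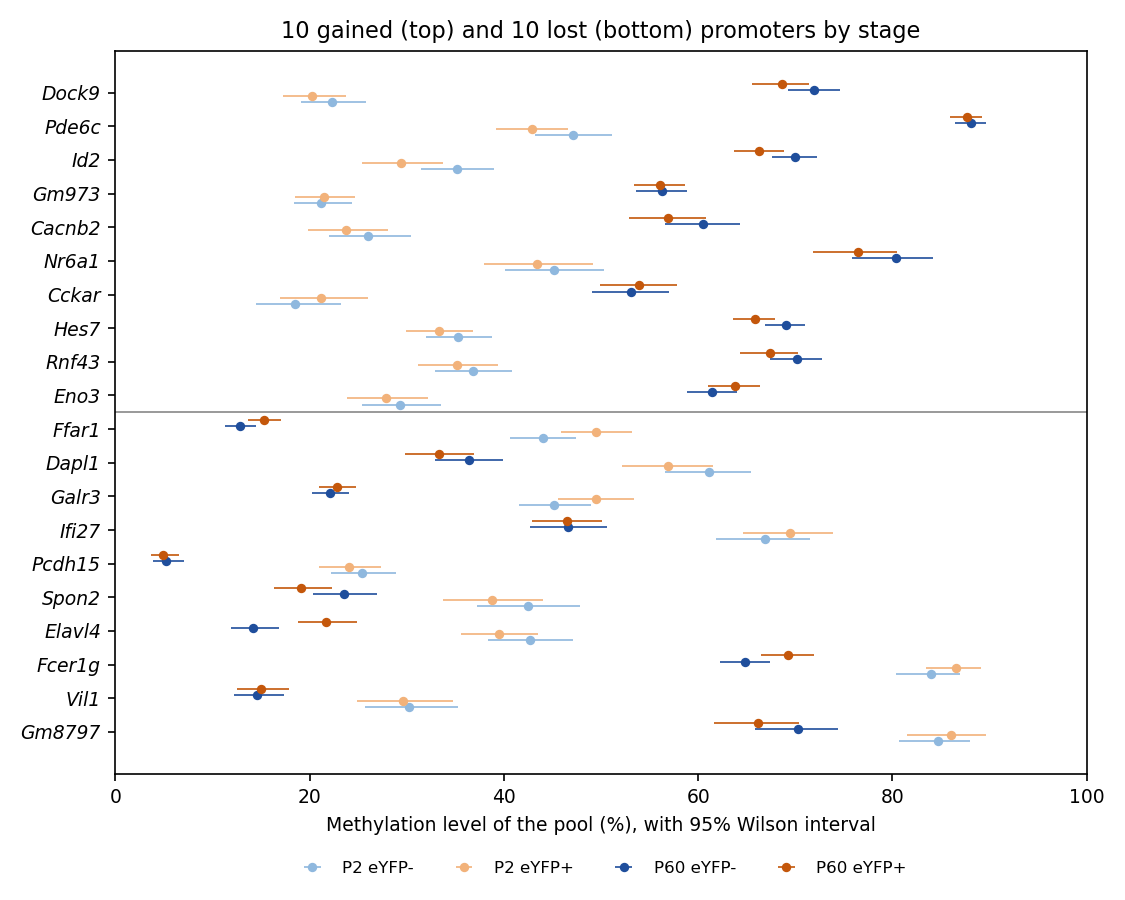
Methylation level (%) in the 4 pools of the 10 gained (top) and 10 lost (bottom) promoters with the largest change common to both subtypes, with 95% Wilson intervals. The intervals at P2 and P60 stand apart in every gene, but the genes were chosen by their change in the same reads. Those of the subtypes overlap at each age except for Elavl4 at P60 (14.1% and 21.7%). Examples are Dock9 (22.3%, 20.3%, 72.0%, 68.6%) and Ffar1 (44.0%, 49.5%, 12.8%, 15.3%).

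Of the 37 losses, the largest was at Ffar1, the fatty acid receptor GPR40 through which fatty acids raise insulin secretion (chr7:30560489-30561489, 27 CpGs). Its level was 44.0%, 49.5%, 12.8% and 15.3%, lower at P60 by 31.2 points in eYFP- and 34.3 points in eYFP+ cells (adjusted p = 1.10e-60 and 3.82e-62, Fisher's exact test on reads). The bases printed above were already low at P2 (10.1% and 15.1%) and ended at 3.89% and 4.69%. The fall was on their flanks: from 67.4% and 72.0% to 23.8% and 27.04% at 200 to 500 bases downstream, and from 44.3% and 49.2% to 6.12% and 10.9% over the next bases upstream, out to 500. The start lay in a hypomethylated region in all 12 libraries.

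At 6 other lost promoters the 200 upstream bases were likewise low at P2 and the level fell at 200 to 500 bases downstream. They do not stand for the whole set: over all lost members the 200 upstream bases were at 47.5%, 46.9%, 32.5% and 33.0%. Some stretches rest on few CpGs, with 1 in the 200 upstream bases of Galr3 and 3 downstream at each of G6pc2 and Vil1. Tmem215, which encodes a membrane protein, was at 24.4%, 29.9%, 10.04% and 12.5%, with 1.75%, 5.49%, 2.98% and 1.15% over the printed bases and 40.9%, 48.7%, 12.6% and 18.4% at 200 to 500 bases downstream. G6pc2, the islet glucose-6-phosphatase, was at 15.1%, 12.7%, 2.04% and 2.35%, and its downstream stretch at 46.8%, 34.3%, 2.59% and 4.79%. Beyond the 200 bases, out to 500 upstream, G6pc2 and Pcdh15 differed from Ffar1 in being at most 3.30% methylated in every pool. Elavl4, the neuronal RNA-binding protein HuD, was at 42.7%, 39.5%, 14.1% and 21.7%, and its downstream stretch at 82.0%, 69.4%, 27.5% and 37.7%. Pcdh15, a protocadherin of inner-ear hair cells, was at 25.4%, 24.01%, 5.22% and 4.86%, and Galr3, a receptor for the neuropeptide galanin, at 45.2%, 49.4%, 22.1% and 22.8%. Vil1, the actin-bundling protein villin, was at 30.3%, 29.6%, 14.6% and 15.01%, and its downstream stretch at 54.5%, 45.3%, 21.5% and 29.2%. At all of these the upstream 200 bases were at most 11.8% methylated in every pool except at Ffar1, where the P2 eYFP+ pool reached 15.1%.

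Other losses lay elsewhere. Dapl1 (61.1%, 56.9%, 36.4%, 33.3%) fell within the 200 upstream bases as well, from 53.4% and 55.7% to 19.8% and 11.3%. Spon2, a matrix protein, was at 42.5%, 38.8%, 23.5% and 19.1%, with 70.4%, 61.0%, 40% and 41.1% in its 200 upstream bases, and Ifi27, an interferon-induced gene, at 66.9%, 69.4%, 46.6% and 46.5%. Fcer1g, the shared chain of Fc receptors in immune cells, was at 83.9%, 86.5%, 64.8% and 69.3%, and the predicted gene Gm8797 at 84.7%, 86.0%, 70.3% and 66.1%. Beside the fall of Fcer1g, the medians of all 44 immune members were 76.6%, 77.3%, 72.9% and 74.6%, with 4 gained and 1 lost, and the part of immune cells in it was not tested.

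Over all gained and all lost members the change had different shapes. In gained members it peaked at the start, at 21.7 points in eYFP- and 20.9 points in eYFP+ cells in the first 100 bases, and fell to 5.01 and 3.96 points at 1000 to 900 bases upstream. In lost members it was -14.03 and -13.1 points in the first 100 bases and largest at 300 to 400 bases downstream, at -26.7 and -27.1 points, on 67 CpGs of 37 promoters. The window of 500 bp on each side chose these members, so the decline beyond it partly follows from the choice.

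**Figure D4:**
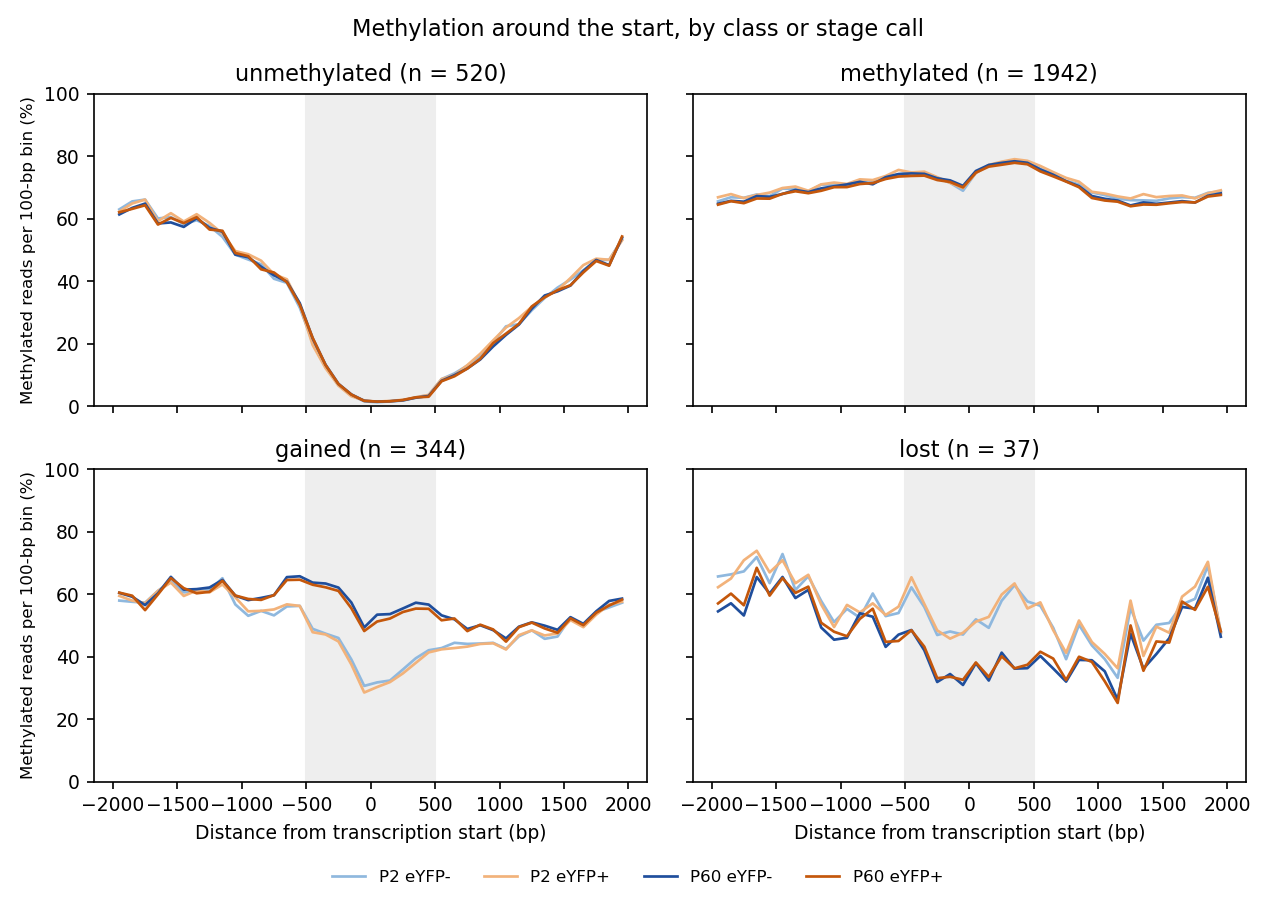
Methylated share of reads (%) in 100-bp bins against the distance from the start (bp), for unmethylated, methylated, gained and lost members, with 1 line per pool and the window of the rule shaded. The subtypes run together in each panel. In gained members the 2 P60 lines lie about 20.9 to 21.7 points above the P2 lines just after the start, and in lost members below them.

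Of the β-cell list, 3 of 10 members lost methylation (Ffar1, Tmem215 and G6pc2) and 1 gained it, Sez6l, at 16.2%, 12.8%, 27.4% and 25.8%. For all members the shares were 0.963% and 8.96%. Scg2, a granule protein, was at 11.6%, 11.6%, 4.25% and 4.04%, a difference under the 10-point threshold.

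Among duct and progenitor genes, 3 of 7 gained and none lost, beside 8.96% and 0.963% of all members. Muc1, a mucin of ducts, was at 19.9%, 17.7%, 30.5% and 33.4%, Tspan8, a tetraspanin, at 17.8%, 21.6%, 39.96% and 34.1%, and Hnf4a, a nuclear receptor of liver, gut and pancreas, at 50.1%, 54.4%, 67.9% and 64.9%, with another start in a hypomethylated region. Of the other islet genes 1 of 11 gained, Pyy, which encodes peptide YY, at 42.7%, 41.3%, 68.7% and 59.8%, and all 4 of its printed CpGs were higher at P60. Of the acinar genes 1 of 12 gained, the colipase gene Clps, at 62.1%, 66.7%, 83.7% and 78.8%, and none lost. The part of remaining acinar, duct or other endocrine cells in these gains was not tested.

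Among genes of other tissues the share that gained lay between 7.14% and 11.5%, beside 8.96% of all members. The counts were 4 of 44 immune genes (9.09%), 4 of 38 liver genes (10.5%), 6 of 58 muscle genes (10.3%), 3 of 26 epidermal genes (11.5%) and 1 of 14 germline genes (7.14%). Acta1, the skeletal muscle actin, was at 48.2%, 46.0%, 75.6% and 74.7%, and Ckm, the muscle creatine kinase, was the muscle list's single loss at 77.6%, 73.9%, 66.7% and 63.6%. F2, prothrombin, was at 44.8%, 42.7%, 69.2% and 69.3%, and Arg1, the arginase of the urea cycle, at 7.20%, 6.91%, 18.7% and 19.3%. Prm1, a protamine of sperm, was at 31.7%, 30.5%, 47.7% and 47.1%, and Aloxe3, a lipoxygenase of the skin barrier, at 4.10%, 4.05%, 15.2% and 14.8%.

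Of the disallowed genes, which most tissues express but β cells keep low, 4 had a promoter in this range and 1 gained, Pcolce, at 27.7%, 38.2%, 49.3% and 51.8%. Of the 2 genes of immature β cells in this range, Igf2 and Lin28b, neither was called. Among exocytosis genes, Mlph (27.04%, 24.2%, 46.7%, 39.7%) and Unc13d (41.8%, 43.6%, 55.9%, 54.8%), which act with Rab27 in granule transport and priming, gained, and Sytl1, another Rab27 partner, lost, at 52.2%, 48.5%, 37.7% and 35.9%. Of the families, 16 of 100 solute carriers gained and none lost, and of 105 Zfp genes, of which 59 were unmethylated throughout, none gained or lost. Over all members 8.96% gained and 0.963% lost, and the lists and families were not tested against these shares.

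Libraries offered a separate view of the stages, since hypomethylated regions had been called in each. A region lay over the start of 1280 members (33.3%) in each of the 2 P2 eYFP- libraries, and of 35.3% and 33.8% in the P2 eYFP+ libraries. At P60 the shares were 27.8%, 28.7%, 27.8% and 28.7% in eYFP- replicates 1 to 4 and 27.9%, 28.3%, 28.1% and 29.0% in eYFP+ replicates 1 to 4. The mean was 33.9% ± 0.91 (SD, n = 4) at P2 and 28.3% ± 0.455 (SD, n = 8) at P60, and the ages did not overlap. The difference was -5.65 points (standard error 0.483; exact permutation test over libraries, two-sided, p = 0.00202, the smallest these 495 arrangements allow). Cells were combined by age and sex before the libraries were made, so P60 libraries of 1 subtype and sex may share DNA, which the labels do not say. With P60 replicates 1 and 2 alone, 1 library per subtype and sex, the difference was -5.75 points, and with replicates 3 and 4 alone -5.54 points (exact permutation p = 0.0286 for each, the smallest possible). Both subtypes were sorted from islets of the same mouse line, so their libraries may also come from the same mice. Neither subset removes that, and these p-values treat the libraries as independent.

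In percentage points the fall was larger than in denser or sparser promoters. CpG-rich promoters went from 97.2% ± 0.113 (SD, n = 4) to 96.1% ± 0.0914 (SD, n = 8), and CpG-poor ones from 2.85% ± 0.263 to 1.83% ± 0.329. The difference of members less that of CpG-rich promoters was -4.55 points and less that of CpG-poor promoters -4.63 points, each with p = 0.00202 in the same exact permutation test. CpG-poor promoters could fall by no more than the 2.85 points they started from, so that comparison holds for points and not for the share of regions lost. Within eYFP+ libraries the fall of members was -6.20 points and within eYFP- libraries -5.09 points, both with p = 0.0667 in an exact permutation test, the smallest possible with 2 against 4. With the 2 P2 eYFP- libraries, whose sexes go against their labels, left out, it was -6.26 points against all P60 libraries (exact permutation p = 0.0222). The number of autosomal regions a library was also lower at P60 (37067 to 48399) than at P2 (55619 to 59870), which moves with this share, and the part of read depth in it was not tested since depth was not given per library.

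**Figure D5:**
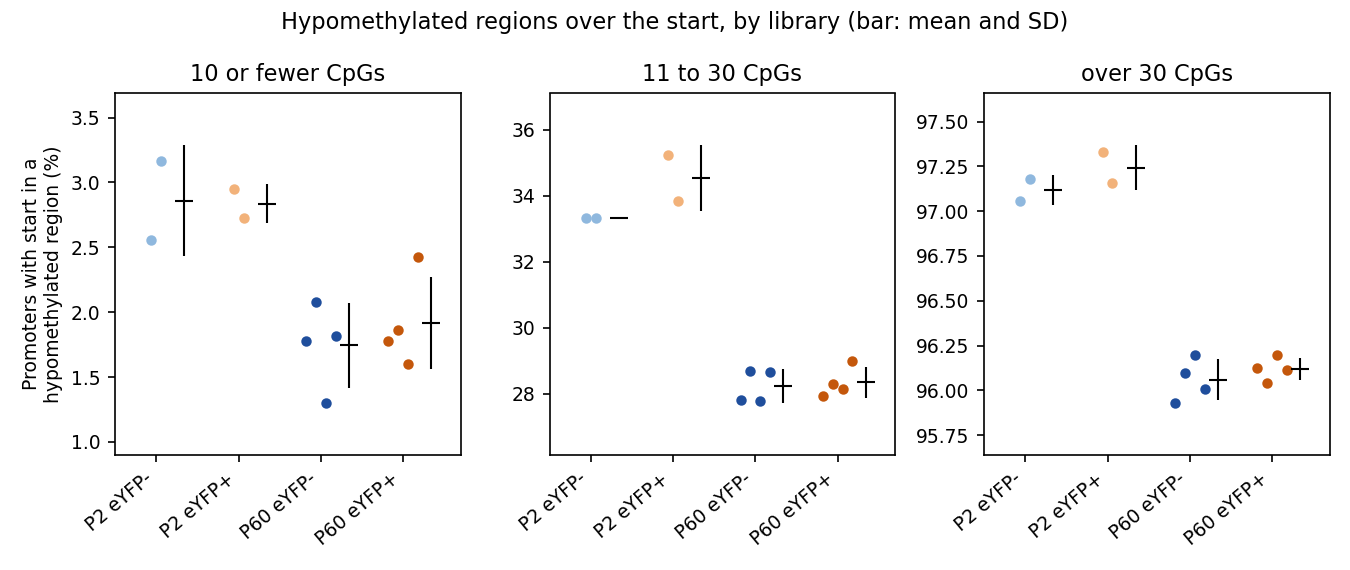
Share of promoters (%) whose start lies in a hypomethylated region, 1 point per library with the group's mean and SD as a bar, for CpG-poor, intermediate and CpG-rich promoters, each on its own axis that does not start at 0. All P2 libraries lie above all P60 libraries in the intermediate promoters, at 33.3% to 35.3% against 27.8% to 29.0%.

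Counted promoter by promoter, the same regions showed the same direction, which restates the fall in share and is not a separate test of it. A region was present over the start in all 12 libraries for 899 members, in none for 2334 and in 1 to 11 for 608. It was present in all 4 P2 and no P60 libraries at 54 members and in no P2 and all 8 P60 libraries at 2, against a background of 0.48% and 0.0162% of all promoters tested. The 54 are 60.7% of the 89 promoters of any density with the first pattern. After Dock9, Gm973 and Cckar, the largest pooled changes among them were at Oacyl (6.46%, 5.62%, 37.1%, 34.8%), Sec14l4 (29.6%, 31.2%, 63.6%, 56.9%) and the claudin gene Cldn9 (34.9%, 30.99%, 63.3%, 61.2%). The 2 with the reverse pattern were Sytl1 and Cpeb4, a regulator of translation, which was at 13.5%, 14.2%, 4.45% and 5.64%. Of the 344 gained members, 92 had a region in all P2 libraries and 169 in no P2 library. In all P60 libraries 11 had a region, and 291 had it in no P60 library. The same libraries feed the pools that chose the gained members, so these counts are not an independent test.

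Between the subtypes, far fewer promoters differed than between the ages. Under the same rule of an adjusted p of 0.05 and 10 points, 10 members were higher and 10 lower in eYFP+ cells at P2, and 3 were higher and 3 lower at P60. The background over all promoters tested was 0.0593% higher and 0.0647% lower at P2, and 0.0323% higher and 0.0539% lower at P60. Over the members the SD of the difference between subtypes was 3.51 points at P2 and 2.65 points at P60. For the difference between ages it was 7.47 points in eYFP- and 7.65 points in eYFP+ cells. Each SD includes the spread of read counting, which is wider at P2, and that part was not removed. With fewer reads at P2, smaller differences could be seen at P60: at an adjusted p of 0.05 without the 10-point rule, 29 members passed at P2 and 61 at P60.

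No member was called between the subtypes at both ages. Of the 20 called at P2, 9 had the same sign at P60 and the largest difference there was 8.77 points; of the 6 called at P60, 3 had the same sign at P2. The Pearson correlation of the 2 differences over the 3841 members was 0.0492, given as a description. A member's Wilson interval reached a median of 3.76 and 3.78 points to either side at P2. At P60 it reached 2.63 and 2.69 points. Such read counting lowers the correlation by an amount that was not tested. The correlation therefore does not show whether differences between the subtypes persist.

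At P2 the largest differences toward eYFP+ cells were at Trim5, a retroviral restriction factor (12.8% in eYFP- and 31.5% in eYFP+ cells, on 141 and 162 reads), Nutf2-ps1 (75.5% and 93.2%, on 110 and 219 reads) and Blnk, an adaptor of B-cell receptor signalling (34.6% and 51.7%). At P60 these were at 23.1% and 19.8%, 72.8% and 75.9%, and 42.2% and 40.6%. Trim5 and Nutf2-ps1 belong to families with near-identical copies and had among the fewest reads, so reads of copies may be mixed there. Lower in eYFP+ cells at P2 were Kalrn (62.7% and 47.4%), Fxyd5, a regulator of the sodium pump (28.5% and 15.8%), Tmsb10b (73.9% and 61.3%) and, from the liver list, the complement gene C8b (44.5% and 31.9%). Kalrn gained in both subtypes and ended at 76.8% and 75.2%. Adjusted p-values of these 7, from Fisher's exact test on reads, ran from 1.82e-05 (Fxyd5) to 0.0437 (C8b).

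At P60 the largest difference was at S100z, which encodes a calcium-binding protein of the S100 family (chr13:95614729-95615729, 29 CpGs). Its level was 33.0%, 42.3%, 43.6% and 61.4%, higher in eYFP+ cells by 17.8 points at P60 (adjusted p = 9.11e-16, Fisher's exact test on reads). At P2 the difference had the same sign, 9.26 points (adjusted p = 0.0371), just under the 10-point threshold. Over the 11 CpGs of the printed upstream bases the levels were 17.7%, 35.4%, 26.96% and 51.9%. A hypomethylated region lay over the start in 2 of 2 P2 eYFP-, 1 of 2 P2 eYFP+, 1 of 4 P60 eYFP- and 0 of 4 P60 eYFP+ libraries.

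The other differences at P60 were between 10.1 and 13.2 points in size. Ipcef1 (21.4% in eYFP- and 31.8% in eYFP+ cells) and the kinase gene Hipk4 (62.5% and 72.5%) were higher in eYFP+ cells. Gria1, a subunit of AMPA glutamate receptors (41.8% and 28.6%), Tnfsf18, a ligand of the tumour necrosis factor family (65.5% and 53.8%), and Myl2, the ventricular myosin light chain (46.3% and 35.7%), were lower. Their adjusted p-values, from Fisher's exact test on reads, lay between 0.000264 (Hipk4) and 0.0410 (Ipcef1). Among lost members Elavl4 came close, at 14.1% and 21.7%, and Pyy among gained ones, at 68.7% and 59.8%, both under the 10-point threshold.

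By library, the subtypes differed by less than the spread between libraries in the share of members with a region over the start at P60. At P60 it was 28.2% ± 0.511 (SD, n = 4) in eYFP- and 28.3% ± 0.463 (SD, n = 4) in eYFP+ libraries, a difference of 0.111 points (standard error 0.345; exact permutation test, two-sided, p = 0.83). At P2 it was 33.3% in both eYFP- libraries and 34.5% ± 0.994 (SD, n = 2) in eYFP+ libraries, a difference of 1.22 points (exact permutation test, p = 0.333, the lower limit for 2 against 2).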

How the data were processed

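T-WGBS was made from FACS-sorted eYFP+ and eYFP- β cells. The authors trimmed the reads (Trim Galore 0.6.6 with cutadapt 1.16, per the labels, SAMtools 1.5 and FastQC among the tools), mapped them to mm39 with abismal and counted methylated and unmethylated reads per CpG with MethPipe, whose versions are not given in the sources used here. The deposited values are raw read counts per CpG in 1 pool per group, and positions of hypomethylated regions per library and pool. Columns and files holding the authors' own comparisons of the subtypes (scores, lists of differing regions) were not used. The pools carry no subtype name: the first was taken as eYFP- from the study's direction of change. Regions found in 1 pool alone of P2 were overlapped at 24.0% to 27.2% (eYFP- pool) by libraries of the same label and at 4.55% to 6.00% by the other. For the P2 eYFP+ pool this was 25.8% to 38.4% against 4.83% to 7.87%. The separation was smaller at P60, at 9.91% to 20.7% against 5.74% to 6.42% (eYFP- pool). For the P60 eYFP+ pool it was 11.1% to 23.4% against 6.10% to 7.98%.

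Reads were summed over the CpGs of each window (GENCODE M39 starts, GRCm39) that both ages list. Each promoter's reads were compared with Fisher's exact test (two-sided), with Benjamini-Hochberg adjustment over all 18556 promoters (scipy 1.17.1), and shares of members with a region over the start by exact permutation tests over libraries. limma 3.58.1 on logit levels was an alternative. Wilson intervals are at 95%. Tests ran first on simulated counts. Windows of 157 members overlap that of another promoter, and 4 symbols are held by more than 1 member. Libraries are pools of mice, so p-values over them measure the spread between pools.

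Genes named are the 10 gained and 10 lost with the largest change common to both subtypes, the 3 largest calls per age and direction between subtypes, members of 12 gene lists that were called (with up to 4 others), and the 6 per direction whose regions separated the ages. Members, lists and tests were chosen with earlier results of these data known. Alternatives were windows of 250 bp, CpGs with 10 reads in each pool, the mean of CpG levels, 300 reads, 5 and 20 points, class limits of 20% and 80%, limma, thinned P60 reads, other region rules and left-out libraries.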

Additional observations from a re-analysis of the deposited data

Results flagged for a closer look

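At 3 of the genes named, the change between the ages differed between the subtypes, by a test of the difference itself (a normal test of the 2 differences in level from pooled reads, Benjamini-Hochberg over all 18556 promoters, at 0.05 and 10 points). The change in eYFP+ cells less that in eYFP- cells was -19.4 points at Gria1 (31.2%, 37.3%, 41.8% and 28.6% in P2 eYFP-, P2 eYFP+, P60 eYFP- and P60 eYFP+), -18.7 points at Blnk (34.6%, 51.7%, 42.2%, 40.6%) and 14.7 points at Fxyd5 (28.5%, 15.8%, 24.1%, 26.1%). Over all members 30 passed that test, of 49 promoters of any density. The test counts reads and holds nothing of the spread between libraries, and these genes were named for their difference at 1 age, which is part of the same quantity.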

How the results depend on the processing

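The counts of gained (344) and lost (37) members stayed within 1.5 times of these under 6 of 8 alternatives, between 315 and 379 gained and between 33 and 38 lost. Of the 344 gained members, 269 were also gained with the window of 250 bp, and of the 37 lost, 21 were also lost with it. With a threshold of 5 points the counts were 582 and 151, and with 20 points 67 and 4. The subtype counts (20 at P2 and 6 at P60) were less stable. The window of 250 bp gave 13 at P2, the mean of CpG levels 6 at P2 and 3 at P60, 5 points 51 at P60, and 20 points 0 at both ages. At 5 points, 29 were called at P2. Unmethylated members were 872 with a limit of 20% and methylated members 435 with a limit of 80%. Pools cannot be split, so no library could be left out of the levels.

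Leaving out each library moved the difference in share of members with a region between the ages from -5.85 to -5.21 points, that against CpG-rich promoters from -4.76 to -4.17 and that against CpG-poor ones from -4.94 to -4.22, all with p of at most 0.00606. Between the subtypes it ran from -0.108 to 0.263 points at P60 and from 0.521 to 1.93 points at P2, with no p under 0.05. With the P2 eYFP+ libraries alone, chosen after seeing the sex labels fail, the stage difference was -6.26 points (exact permutation p = 0.0222). With the replicate block the subtype differences were 0.111 points at P60 (p = 0.625, smallest possible 0.125) and 1.22 points at P2 (p = 0.5) in exact permutation tests, and no call changed. Replicate numbers give sex labels and not shared animals. Deviations of same-numbered P60 libraries correlated between 0.0593 and 0.178 over promoters, other pairs between -0.123 and 0.111.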

Other observations

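Sex labels moved with the share of members that had a hypomethylated region over the start at P60, a comparison made after the values were seen. It ran from 27.8% to 28.1% in the 4 libraries labelled female and from 28.3% to 29.0% in the 4 labelled male, without overlap (difference 0.749 points, exact permutation test, two-sided, p = 0.0286, the smallest that 4 against 4 can give). CpG-poor promoters differed the same way (1.61% in female and 2.05% in male libraries on average, p = 0.0286 in the exact permutation test), and CpG-rich ones by -0.0443 points (exact permutation p = 0.6). Female libraries also held fewer autosomal regions (37067 to 43554) than male ones (44822 to 48399), and the part of that number in the difference was not tested. Libraries of 1 subtype and sex may share DNA, and those of the 2 subtypes may share mice, in which case this p counts them more than once.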
